A study of Caenorhabditis elegans with 8 samples.

Results

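The response averaged over honokiol and magnolol was measured by RNA-seq in whole Caenorhabditis elegans, a nematode worm. Both compounds are biphenols known from Magnolia bark and are positional isomers. Each joins a pair of phenol rings that carry an allyl group. In magnolol both hydroxyl groups sit next to the bond between the rings, and in honokiol one sits next to it and the other opposite to it. The set described here holds the 5 libraries of worms given either isomer, out of 8 libraries in all. There were 2 libraries of worms given 200 µM honokiol for 1 h, 3 libraries of worms given 200 µM magnolol for 1 h and 3 libraries of worms given DMSO, the control. No expression value was used to choose them. The change of a gene is the mean of the honokiol and the magnolol log2 change against control, with equal weight for each compound, given ± its standard error (SE). The strain, stage and age of the worms are not stated in the sources at hand. Nor is a separate culture stated for each replicate, and p-values therefore describe the scatter among these samples, which could be technical.

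Animals commonly clear small foreign molecules in successive steps. Cytochrome P450 enzymes and other oxidising or hydrolysing enzymes expose or add a reactive group, transferases attach a sugar, a glutathione or an acyl group, and ATP-binding cassette (ABC) transporters pump substances out of the cell. In the worm the intestine is a main site of this metabolism, and nuclear hormone receptors, a family much enlarged in C. elegans, are among the transcription factors known to control it.

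Total counts were 30274330 to 35888186 per library, and the test took in 16813 of 21309 rows after a filter on low counts. Calls were made where the quasi-likelihood test of edgeR gave a Benjamini-Hochberg adjusted p under 0.05 over all tested rows. Levels are in CPM, which divides each count by its library size. Of the compound libraries, honokiol 2 was lowest and magnolol 2 highest of all 8 in the summed CPM of the intestine, neuron, body muscle, pharynx, germline, oocyte and yolk marker lists. Yolk protein genes summed to 18653.0 and 11625.7 CPM in honokiol 1 and 2 and to 20330.6, 31530.3 and 21680.7 CPM in magnolol 1 to 3, against 17128.7 to 20125.0 CPM in control. Of the tissue markers only ftn-1, in the intestine list, was called (-0.60 ± 0.14, with adjusted p = 0.136 without control 3 and 0.0975 without honokiol 1). Without magnolol 2 the test described next gave 499 higher and 98 lower genes, and without honokiol 2 459 and 117. In whole-worm RNA, fewer cells of a type and less RNA per cell cannot be told apart.

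The averaged response consisted mostly of rises. Of the tested rows 511 (3.04%) were called higher in worms given the isomers than in control and 113 (0.672%) lower. Rises reached far: 234 were at least 2-fold and 65 at least 8-fold, and the median change of the higher genes was 0.92. Falls were shallow, with 17 of at least 2-fold and a median change of -0.62. Together the calls made up 624 rows (3.71%). In 554 of them (88.8%) all compound libraries lay on one side of all control libraries, as in 7.98% of all tested rows. This held for 449 of the 511 rises and 105 of the 113 falls, where 4.9% of all tested rows had the compound libraries above control and 3.08% had them below. The median change over all tested rows was -0.0087.

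Where a gene stood in control worms went with the size of its rise. Among rows under 1 CPM in control 61 of 2410 (2.53%) rose, with a median change of 3.55; such rows could pass the filter through the compound libraries alone. From 1 to 10 CPM it was 176 of 4969 (3.54%) with a median of 1.29, and from 10 to 100 CPM 244 of 7301 (3.34%) with a median of 0.67. At 100 CPM or more 30 of 2133 (1.41%) rose, with a median of 0.47. The median SE fell along the same order, at 0.690, 0.220, 0.103 and 0.090, so that only large changes could be called in weakly expressed genes.

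How far the isomers shared a response was tested as magnolol minus honokiol, 1 pair of compounds at equal dose and time, with p-values adjusted over all tested rows. Over all tested rows 48 (0.285%) were higher with magnolol and 209 (1.24%) higher with honokiol. A call for the average does not show that each compound moved the gene. Among the 511 rises of the average 173 (33.9%) also differed between the isomers, 157 of them higher with honokiol and 16 higher with magnolol. Among its 113 falls 3 (2.65%) did. Larger rises differed more often: 34 of 65 at 8-fold or more, 85 of 169 from 2-fold to under 8-fold, 38 of 150 from 1.5-fold to under 2-fold and 16 of 127 below that. For 416 of the 624 called genes the 95% interval of the isomer difference lay within 2-fold either way, 320 of them rises and 96 falls. The remaining genes were of different kinds. In some the interval lay wholly beyond 2-fold, as in cyp-35C1 (-3.65 to -3.14) and cyp-13A4 (-1.94 to -1.42). In others the interval reached across 2-fold, and the data, with 2 honokiol libraries, do not bound the difference that closely. When the 5 compound libraries were fitted as 1 group, so that isomer differences counted as spread, 308 genes were higher and 52 lower.

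The transcript of pgp-1, an ABC exporter of the P-glycoprotein family on chromosome IV (WBcel235, 12591704 to 12599169, minus strand), showed a large rise of equal size with both compounds. It stood at 946.5 and 661.5 CPM in honokiol 1 and 2 and at 657.6, 1004.9 and 760.8 CPM in magnolol 1 to 3, against 4.525, 4.581 and 3.969 CPM in controls 1 to 3. All compound libraries lay far above all controls, and the ranges of the isomers overlapped. The change was 7.53 ± 0.21, or 184-fold (adjusted p = 6.68e-12), and the isomers differed by 0.0066 (95% interval -0.36 to 0.37, adjusted p = 0.993).

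The 10 largest rises and 10 largest falls were taken from called genes with separate compound and control ranges and a mean CPM no lower than the median. Their weaker compound had to reach 50% of the log2 change of the stronger. This choice favours genes on which the isomers are close. Even so, 8 of the 10 rises differed between the isomers, with cyp-13A8 and cyp-13A12 higher with magnolol and C06E4.6, C06E4.3, cyp-13A4, cyp-13A5, cyp-13A6 and cyp-34A7 higher with honokiol. None of the 10 falls was called different between the isomers; by unadjusted 95% interval only that of Y6G8.2 excluded 0 (0.07 to 0.64, adjusted p = 0.206).

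**Figure D1:**
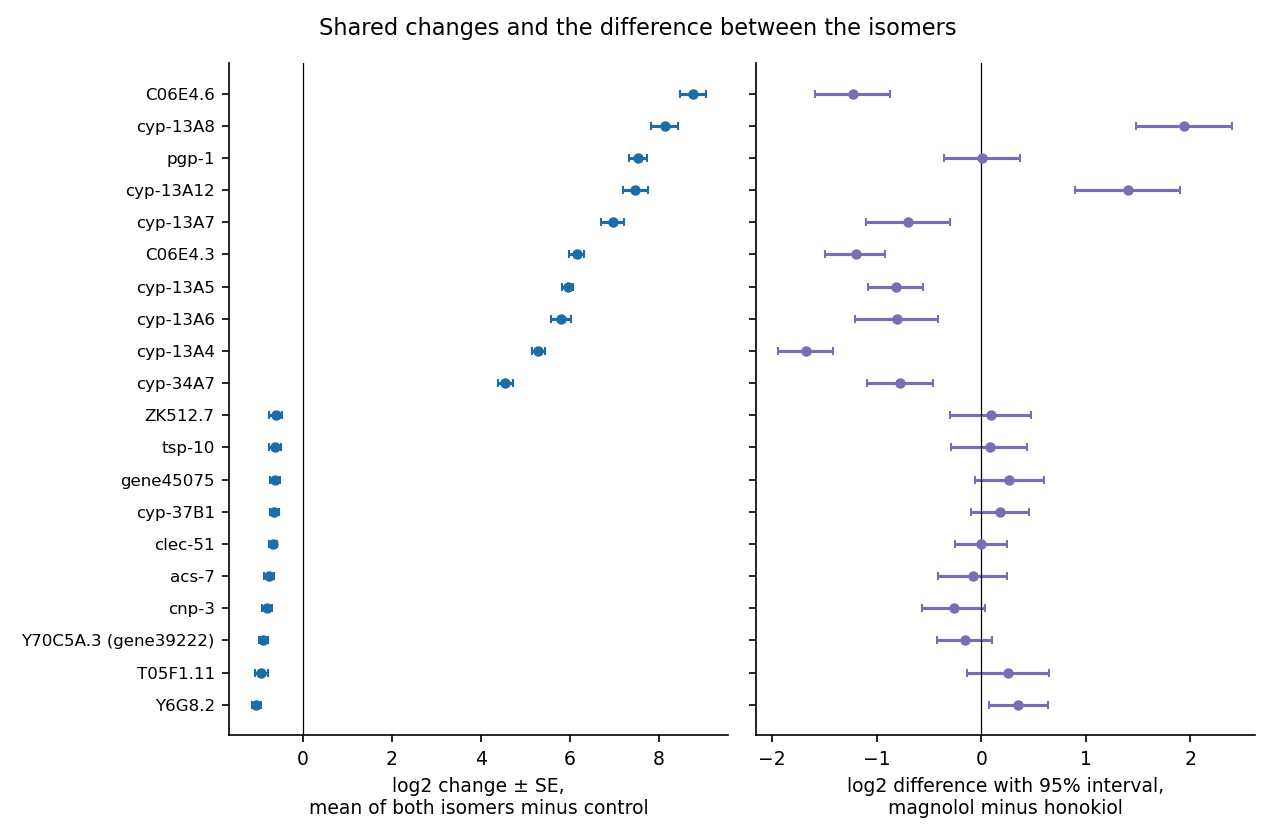
The 10 largest rises and 10 largest falls by the rule in the text. The left panel gives the log2 change against control with its SE, and the right panel magnolol minus honokiol on the log2 scale with its 95% interval. The interval of pgp-1 spans 0 (-0.36 to 0.37), while those of cyp-13A8 (1.48 to 2.40) and cyp-13A4 (-1.94 to -1.42) lie on opposite sides of it.

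Cytochrome P450 genes, which encode haem enzymes that oxidise foreign and internal molecules, gave more called members than any other list. Of 73 tested rows 34 rose, 2 fell and 37 were not called, with a list median of 0.65 beside -0.0087 over all rows. Calls made up 49.3% of the list, beside 3.71% of all tested rows. Of the falls, cyp-37B1 stayed called with each library left out, while cyp-32A1 lost its call in all 8 such fits, with adjusted p of 0.114, 0.182 and 0.0624 without controls 1, 2 and 3, 0.116 and 0.113 without honokiol 1 and 2 and 0.11, 0.067 and 0.0841 without magnolol 1, 2 and 3. Of the called rows 20 were higher with honokiol than with magnolol and 2 higher with magnolol. The smallest p of the list belonged to cyp-13A5, at 822.6 and 878.1 CPM in honokiol 1 and 2 and 440.6, 524.0 and 481.3 CPM in magnolol 1 to 3, against 10.71, 11.48 and 8.764 CPM in control. Its groups were widely separated, and the change was 5.95 ± 0.13 (61.9-fold, adjusted p = 1.57e-12).

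The order of the isomers was not the same for all members. The cyp-13A12 transcript was at 230.9 and 260.6 CPM with honokiol and 592.3, 718.1 and 640.4 CPM with magnolol, against 3.854, 1.517 and 1.323 CPM in control, and the change was 7.47 ± 0.28. For cyp-13A8 the compound libraries held 31.81 to 143.2 CPM, while the controls rested on 19, 4 and 0 counts, so that its fitted change of 8.13 ± 0.31 depends on those few counts. The reverse order was seen in cyp-35C1, at 566.0 and 650.6 CPM with honokiol and 55.02, 57.09 and 61.34 CPM with magnolol, against 15.74 to 19.62 CPM in control. All its compound libraries were above control, and magnolol minus honokiol was -3.40 (95% interval -3.65 to -3.14, adjusted p = 6.75e-10). The fall of cyp-37B1 came with levels at 37.99 and 50.53 CPM with honokiol and 44.72 to 53.13 CPM with magnolol, against 68.99 to 79.6 CPM in control, a change of -0.65 ± 0.10 (adjusted p = 0.00104). The cyp-13A, cyp-34A and cyp-35A genes are close paralogs, and how reads matching several of them were counted is unknown here, which leaves the value of each one uncertain.

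P450 enzymes need electrons from a partner, and the gene of that partner moved as well. The gene emb-8, which encodes NADPH-cytochrome P450 reductase and is named here after its values were seen, was at 508.6 and 494.7 CPM with honokiol and 400.6, 505.1 and 443.0 CPM with magnolol, against 219.7, 208.1 and 191.9 CPM in control. Its lowest compound library was above its highest control, the change was 1.2 ± 0.10 (adjusted p = 8.61e-07), and the isomers differed by -0.16 (95% interval -0.41 to 0.09). In the list of haem and P450 partner genes cytb-5.1, a cytochrome b5 gene, was the other of 2 called among 10, with a change of 0.68 ± 0.08 and a higher level with honokiol (adjusted p = 6.71e-04 between the isomers). The share called in that list was 20%, beside 3.71% of all tested rows.

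Other oxidising and hydrolysing enzymes gave fewer calls. Of 33 short-chain dehydrogenases 4 rose and 1 fell, and of 32 carboxylesterases 7 rose and 1 fell. Called members made up 15.2% and 25% of these lists, beside 3.71% of all tested rows. The dehydrogenase that fell, dhs-20, had adjusted p = 0.104 and 0.168 without controls 1 and 2, 0.0579 and 0.0897 without honokiol 1 and 2 and 0.079 without magnolol 3. The dehydrogenase gene dhs-23 was at 70.37 and 86.94 CPM with honokiol and 6.795 to 11.87 CPM with magnolol, against 2.796 to 3.095 CPM in control (3.24 ± 0.18). The carboxylesterase gene cest-4 was at 194.9 and 214.6 CPM with honokiol and 111.0, 135.3 and 117.9 CPM with magnolol, against 49.5 to 54.71 CPM in control (1.6 ± 0.09). Both genes were higher with honokiol than with magnolol, with adjusted p = 2.12e-07 and 8.84e-04. Of the 5 flavin monooxygenases 1 was called higher and 1 lower, with changes under 1.5-fold, and no call in that list survived every left-out library.

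Conjugating enzymes followed. Of 66 UDP-glucuronosyltransferases, which attach sugars to small molecules, 26 rose, 1 fell and 39 were not called, with a list median of 0.34. The share called was 40.9%, beside 3.71% of all tested rows. The fall was not called without any 1 of the controls, honokiol 1, magnolol 1 or magnolol 3. Between the isomers 18 of the called members differed, all of them higher with honokiol. The gene ugt-19 stood at 185.9 and 204.1 CPM with honokiol and 131.8, 151.8 and 146.6 CPM with magnolol, against 16.96, 18.59 and 17.89 CPM in control (3.23 ± 0.10, adjusted p = 1.40e-11). The ranges of its 3 groups did not overlap, and it too was higher with honokiol (adjusted p = 0.0395). An isomer difference was not called in ugt-62, named after its values were seen, at 339.9 and 389.6 CPM with honokiol and 335.4 to 353.9 CPM with magnolol, against 134.9 to 138.9 CPM in control. It changed by 1.38 ± 0.09, and the isomers differed by -0.08 (95% interval -0.30 to 0.14).

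Glutathione S-transferases couple glutathione to reactive molecules. Of 45 members 10 rose and 1, gst-34, fell, with a list median of 0.12. Calls made up 24.4% of the list, beside 3.71% of all tested rows. The fall was not called without control 1 (adjusted p = 0.0974) or honokiol 2 (0.0552). The gene gst-33 was at 57.14 and 64.51 CPM with honokiol and 65.1, 56.45 and 59.62 CPM with magnolol, against 5.08, 5.741 and 3.935 CPM in control. The ranges of the isomers overlapped and lay well above control, a change of 3.62 ± 0.13 (adjusted p = 7.75e-11) with an isomer difference of -0.01 (95% interval -0.28 to 0.26). In contrast gst-21 was at 18.49 and 25.67 CPM with honokiol and 4.836 to 6.634 CPM with magnolol, against 0.8626 to 1.687 CPM in control (3.14 ± 0.22). The widely used stress reporter gst-4, added after its value was seen, was not called at -0.0033 ± 0.11 (adjusted p = 0.995). In the list of SKN-1 and oxidative stress genes 4 of 30 rows rose and 0 fell, 13.3% beside 3.71% of all tested rows. At an unadjusted p under 0.05 there were 7 higher and 1 lower. The rises numbered 3 without control 1 or 2, magnolol 1 or magnolol 3, and stayed at 4 only without control 3 or magnolol 2. They included gst-5 (1.52 ± 0.11, higher with honokiol), gst-7 (0.82 ± 0.11) and dhs-8 (3.31 ± 0.46, at most 0.3212 CPM in control).

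Among the 51 ABC transporters 9 rose and 1 fell, with a list median of 0.04, and the 9 rises stayed called whichever library was left out. The fall, of pmp-4, had adjusted p = 0.221 and 0.207 without controls 1 and 2, 0.189 and 0.0625 without honokiol 1 and 2 and 0.103 and 0.0893 without magnolol 1 and 3. The share of the list that was called was 19.6%, beside 3.71% of all tested rows. After pgp-1 the smallest p belonged to abt-4 and pgp-9. The compound libraries of abt-4 ran from 166.3 to 426.4 CPM, against 58.6, 60.09 and 67.04 CPM in control (2.1 ± 0.15), and abt-4 was the member called higher with magnolol (adjusted p = 0.0337). For pgp-9 they ran from 96.23 to 196.1 CPM, against 35.55 to 43.12 CPM in control (1.81 ± 0.14). The exporter mrp-2, named after its values were seen, was at 42.78 to 54.7 CPM in the compound libraries, against 22.25, 26.62 and 27.38 CPM in control. It had a change of 1.00 ± 0.10 and an isomer difference of -0.10 (95% interval -0.37 to 0.16).

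**Figure D2:**
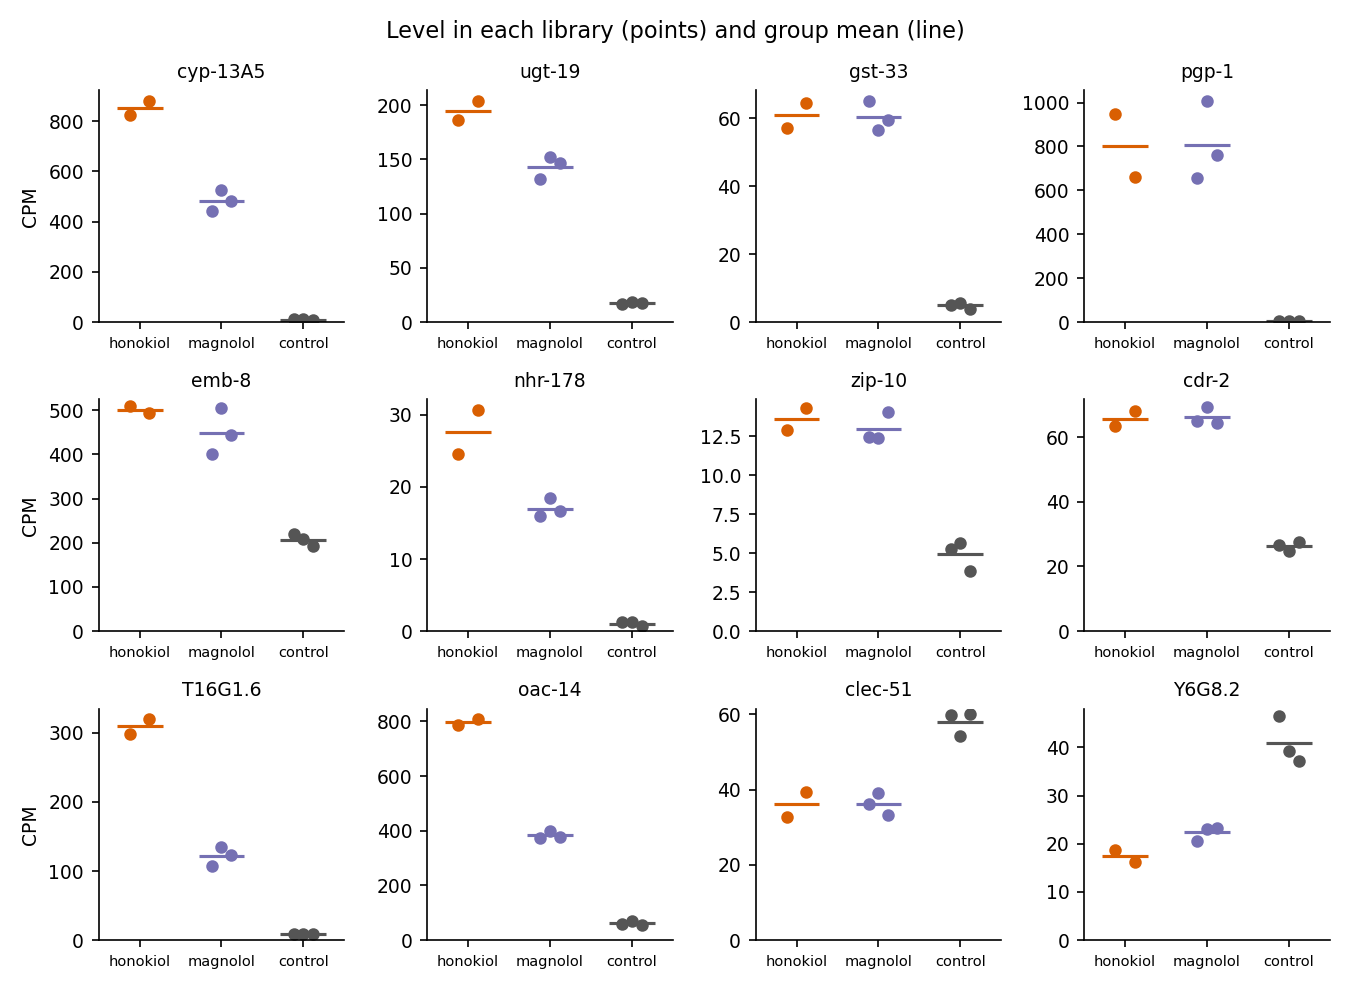
CPM of 12 genes in each library, with honokiol, magnolol and control from left to right in every panel. Points are libraries and lines are group means. In pgp-1, gst-33, cdr-2 and zip-10 the isomers overlap and lie above control, in cyp-13A5 and T16G1.6 honokiol lies above magnolol, and in clec-51 and Y6G8.2 all compound libraries lie below control.

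Of the nuclear hormone receptors, which switch genes in response to small ligands, 33 of 197 tested rows rose and 0 fell, with a list median of 0.19. At an unadjusted p under 0.05 there were 59 higher and 5 lower, and DESeq2 and limma-voom called 37 and 35 higher with 0 lower. The gene nhr-178 was at 24.61 and 30.62 CPM with honokiol and 15.93, 18.45 and 16.6 CPM with magnolol, against 1.255, 1.249 and 0.6614 CPM in control (4.34 ± 0.19, adjusted p = 8.68e-10). For nhr-237 the compound libraries held 5.7 to 20.3 CPM, against 0.8467 to 0.9921 CPM in control (3.60 ± 0.17). For nhr-232 they held 35.35 to 81.15 CPM, against 7.182 to 10.32 CPM in control (2.64 ± 0.14). Of the 33 rises 9 were also higher with honokiol than with magnolol and 1 was higher with magnolol. Rises made up 16.8% of this list, beside 3.04% of all tested rows. With each library left out in turn they numbered 23 to 32, with 26 and 23 without controls 1 and 2 and 26 without magnolol 1 or magnolol 3. Leaving out either honokiol library also lowered the count. The count fell to 17 when the compound libraries were fitted as 1 group. The xenobiotic receptor gene nhr-8, added after its value was seen, was not called at 0.18 ± 0.08 (adjusted p = 0.349).

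Transcription factors of stress responses moved by smaller amounts. Of 25 tested 8 rose and 0 fell, with 24 of the 25 changes positive and a list median of 0.19. Calls made up 32% of the list, beside 3.71% of all tested rows. At an unadjusted p under 0.05 there were 12 higher and 0 lower, and DESeq2 and limma-voom each called 8 higher. Without control 1 or 2 the count was 5. The bZIP gene zip-10 was at 12.88 and 14.33 CPM with honokiol and 12.44, 12.37 and 14.06 CPM with magnolol, against 5.284, 5.681 and 3.869 CPM in control (1.42 ± 0.15). The isomers overlapped and both lay above control. The gene pqm-1, a zinc-finger factor of intestinal stress responses, changed by 0.85 ± 0.09 and was higher with honokiol (adjusted p = 0.0161).

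The gene fos-1 encodes the Fos partner of the AP-1 factor. It was at 55.8 and 49.32 CPM with honokiol and 53.2, 56.84 and 56.99 CPM with magnolol, against 33.75, 27.37 and 38.92 CPM in control (0.70 ± 0.11, adjusted p = 8.85e-04). A row whose symbol had been turned into a calendar date of June, which among annotated symbols fits only jun-1, the Jun partner of AP-1, was read as that gene after its values were seen. It was at 56.31 and 56.29 CPM with honokiol and 58.68 to 61.28 CPM with magnolol, against 36.52, 39.12 and 43.89 CPM in control (0.55 ± 0.08, adjusted p = 7.96e-04). Both rows had every compound library above every control. The cyclic AMP responsive factor gene crh-1, also named afterwards, changed by 0.63 ± 0.10. Transcripts of skn-1 (0.08 ± 0.13), daf-16 (0.05 ± 0.10), hsf-1 (0.02 ± 0.09) and ahr-1 (0.24 ± 0.37), added for their known roles in stress or xenobiotic responses once their values were known, were not called.

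In the metal response list 5 of 12 rows rose and 0 fell, with a list median of 0.60. The share called was 41.7%, beside 3.71% of all tested rows. Likewise 5 were higher and 0 lower at an unadjusted p under 0.05, in DESeq2 and in limma-voom. Among them were 3 cdr genes, a family first described for induction by cadmium. The cdr-2 transcript was at 63.37 and 67.89 CPM with honokiol and 64.8, 69.36 and 64.45 CPM with magnolol, against 26.66, 24.72 and 27.68 CPM in control (1.32 ± 0.08), and the isomers differed by 0.01 (95% interval -0.20 to 0.22). The cdr-4 and cdr-1 transcripts changed by 1.77 ± 0.09 and 2.99 ± 0.16 and were higher with honokiol, with adjusted p = 0.00243 and 1.38e-06. The other pair of rows both carry the symbol numr-2 and had nearly equal CPM. The metallothionein genes mtl-1 (-0.41 ± 0.26) and mtl-2 (0.38 ± 0.25), which are classic metal reporters and were likewise added, were not called.

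Heat shock genes show where the average hides unlike responses. Of 17 rows 9 rose and 1 fell, and 8 of the 9 differed between the isomers, all of them higher with magnolol. Calls made up 58.8% of the list, beside 3.71% of all tested rows. The fall, of hsp-12.3, had adjusted p = 0.08 without control 1. On row gene8423, F44E5.4, an HSP70 gene, was at 11.96 and 9.11 CPM with honokiol and 220.5, 260.4 and 238.7 CPM with magnolol, against 7.299, 22.25 and 4.002 CPM in control. Honokiol libraries lay within the control range and magnolol libraries far above it, and the isomers differed by 4.51 (95% interval 3.46 to 5.56, adjusted p = 6.95e-05). On row gene35931, hsp-16.1, a small heat shock gene, was at 5.639 and 5.282 CPM with honokiol and 33.23 to 36.64 CPM with magnolol, against 3.62, 5.919 and 6.283 CPM in control. Both symbols stand on further rows with nearly equal CPM. How reads matching several rows were counted is unknown here, so such rows cannot be taken as separate responses. With the compound libraries as 1 group 1 of the 17 rows was called higher.

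Immune effector genes, chiefly lysozymes and secreted peptides, rose in 6 of 34 rows and fell in 0, with a list median of 0.0003. The share called was 17.6%, beside 3.71% of all tested rows. At an unadjusted p under 0.05, 8 were higher and 6 lower, and DESeq2 and limma-voom each called 6 higher and 0 lower. The lysozyme gene lys-3 was at 7.717 and 8.486 CPM with honokiol and 12.38, 12.08 and 13.41 CPM with magnolol, against 2.306, 2.499 and 2.679 CPM in control (2.02 ± 0.15). Its neighbour lys-2 changed by 0.68 ± 0.09, with 146.5 to 175.2 CPM in the compound libraries, against 92.75 to 113.3 CPM in control. The infection response gene irg-2 changed by 1.23 ± 0.14. None of these 3 was called different between the isomers, with adjusted p of 0.0723, 0.674 and 0.25. Of 14 osmotic response genes 1 rose and 1 fell, the rise being gpdh-1, which encodes a glycerol-making enzyme (0.51 ± 0.09, named after its value was seen). Calls made up 14.3% of that short list, beside 3.71% of all tested rows. The fall, of hmit-1.1, had adjusted p = 0.234 and 0.226 without controls 1 and 2, 0.214 without honokiol 1 and 0.104, 0.0553 and 0.0866 without magnolol 1, 2 and 3.

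Lipid gene lists differed in their share of called rows, beside 3.71% of all tested rows. It was 21.7% for fatty acid synthesis, 13.6% for lipases and 6.25% for acyl-CoA synthetase and beta-oxidation genes. The last is not far from the share of all rows. Of 23 fatty acid synthesis genes 5 rose and 0 fell, and 7 were higher and 0 lower at an unadjusted p under 0.05, with 6 higher in DESeq2 and 4 in limma-voom. Without control 1, 2 or 3, honokiol 1 or magnolol 3 the count was 3, and with the compound libraries as 1 group it was 1. The elongase genes elo-2 and elo-6 changed by 0.84 ± 0.09 and 0.60 ± 0.10 and were higher with honokiol, with adjusted p = 2.38e-04 and 0.00148. With magnolol elo-6 was not called (0.21, adjusted p = 0.372), and its magnolol libraries at 119.7 to 134.4 CPM overlapped the controls at 92.89 to 121.8 CPM. The desaturase gene fat-5 was at 42.09 and 44.6 CPM with honokiol and 36.97, 28.11 and 34.64 CPM with magnolol, against 18.86 to 21.62 CPM in control (0.92 ± 0.11). Of 22 lipases 3 rose. With magnolol lips-10 was not called (0.18, adjusted p = 0.39), and it differed between the isomers (adjusted p = 2.31e-04). The genes lips-5 and lips-11 were called with each compound, lips-11 on 0, 7 and 10 control counts. In the list of acyl-CoA synthetase and beta-oxidation genes 1 of 64 rose and 3 fell. The rise was that of cpt-4, of the carnitine palmitoyltransferase family, at 73.1 to 106.6 CPM in the compound libraries, against at most 25.13 CPM in control (2.12 ± 0.13). The falls included acs-7, an acyl-CoA synthetase gene, at 18.61 and 26.2 CPM with honokiol and 18.65 to 22.85 CPM with magnolol, against 32.77 to 41.08 CPM in control (-0.77 ± 0.12). They also included acox-1.6, an acyl-CoA oxidase gene, at 51.41 to 69.11 CPM in the compound libraries, against 87.57 to 98.62 CPM in control (-0.62 ± 0.10). The third, acox-3, had adjusted p = 0.0802, 0.0933 and 0.0536 without controls 1, 2 and 3, 0.128 without honokiol 1 and 0.0501 without magnolol 1.

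Families whose substrates are less known had large rises. Of 11 tested T16G1 and E02C12 genes, which encode proteins related to small-molecule kinases, 7 rose and 0 fell, with a list median of 1.84. The share called was 63.6%, beside 3.71% of all tested rows. There were 7 higher and 0 lower also at an unadjusted p under 0.05 and in DESeq2, and 6 and 0 in limma-voom. The T16G1.6 transcript was at 298.8 and 319.7 CPM with honokiol and 107.7, 134.6 and 123.5 CPM with magnolol, against 8.4 to 8.656 CPM in control (4.52 ± 0.11, adjusted p = 2.58e-12). Honokiol lay above magnolol and both above control, with adjusted p = 2.22e-06 between the isomers. Of 41 membrane O-acyltransferase genes of the oac family 6 rose. These rises made up 14.6% of that list, beside 3.04% of all tested rows. They numbered 4 without control 2 or control 3 and 5 without control 1 or any 1 magnolol library. Leaving out honokiol 2 also lowered the count. The oac-14 transcript was at 785.5 and 809.2 CPM with honokiol and 372.6 to 397.6 CPM with magnolol, against 56.09 to 70.53 CPM in control (3.15 ± 0.11).

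Genes of C-type lectins, secreted sugar-binding proteins, rose in 9 of 149 rows and fell in 1, and those of serpentine receptors rose in 7 of 174 and fell in 1. F-box genes, whose proteins select substrates for ubiquitin ligases, rose in 3 of 185 rows and fell in 6. Called members made up 6.71%, 4.6% and 4.86% of these lists, beside 3.71% of all tested rows, and the receptor and F-box counts are near that share. Lectin rises numbered 5 without control 2, receptor rises 4 without honokiol 1, magnolol 2 or magnolol 3, and F-box falls 3 without control 3 or honokiol 1. The lectin gene clec-210 changed by 4.12 ± 0.24 and the receptor gene srr-4 by 2.00 ± 0.09, both higher with honokiol than with magnolol (adjusted p = 0.0161 and 4.66e-05). The F-box gene fbxc-58 changed by 0.95 ± 0.09, with 36.49 to 47.61 CPM in the compound libraries, against 19.84 to 23.81 CPM in control.

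**Figure D3:**
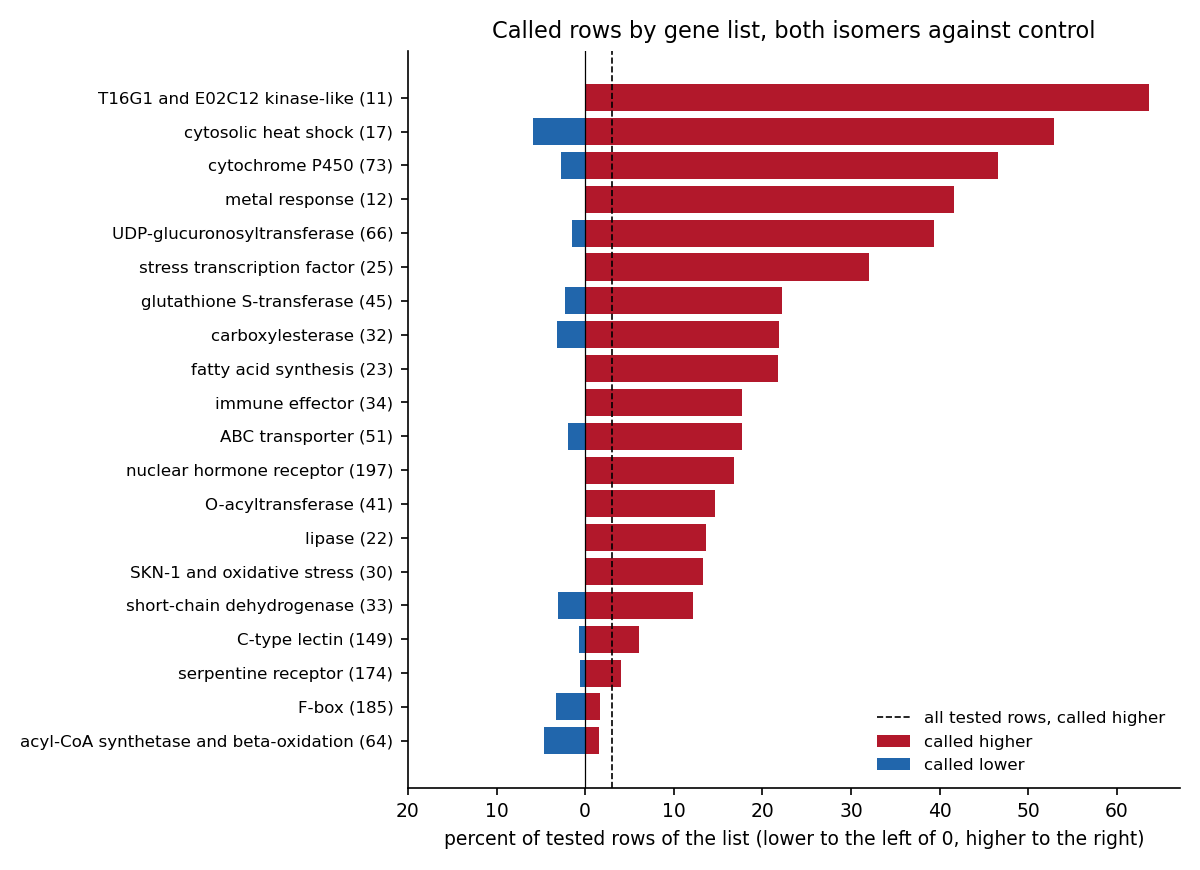
Percent of the tested rows of each gene list called higher or lower in worms given the isomers against control. The dashed line marks the 3.04% of all tested rows that were called higher. The kinase-like, heat shock, P450 and metal lists have the highest shares, and falls make up a small part of most lists.

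Among the 10 largest falls, Y6G8.2 was at 18.76 and 16.17 CPM with honokiol and 20.56, 23.12 and 23.33 CPM with magnolol, against 46.54, 39.32 and 37.07 CPM in control. All its compound libraries were below all controls, a change of -1.05 ± 0.10 (adjusted p = 6.78e-06). The next were T05F1.11 (-0.94 ± 0.14), Y70C5A.3 on row gene39222 (-0.90 ± 0.10), the calponin-like gene cnp-3 (-0.82 ± 0.11), acs-7, clec-51 and cyp-37B1. The lectin gene clec-51 was at 32.74 and 39.43 CPM with honokiol and 36.07, 39.19 and 33.2 CPM with magnolol, against 59.76, 54.23 and 60.19 CPM in control (-0.68 ± 0.09), and the isomers differed by 0.0023 (95% interval -0.25 to 0.25).

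The last 3 falls of that rule were less stable. The row gene45075 (-0.63 ± 0.12) had adjusted p = 0.0564 without control 2. The tetraspanin gene tsp-10 (-0.63 ± 0.14) had adjusted p = 0.0603, 0.0572 and 0.0536 without controls 1, 2 and 3 and 0.0733 without honokiol 1. ZK512.7 (-0.62 ± 0.15), whose control 3 stood at 84.46 CPM beside 53.78 and 52.92 CPM in controls 1 and 2, had adjusted p = 0.157 without control 3 and 0.123 without honokiol 1. Below the median level, ins-33, an insulin-like peptide gene, was at 1.61 to 2.997 CPM in the compound libraries, against 5.138, 5.265 and 6.383 CPM in control (-1.2 ± 0.20), and it was named after its values were seen. Of the 113 falls 36 (31.9%) kept their call whichever library was left out, as did 354 (69.3%) of the 511 rises. Lower genes numbered 62, 69 and 73 without controls 1, 2 and 3, 59 without honokiol 1 and 70 without magnolol 3.

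Small changes, here under 1.5-fold, made up 175 of the 624 calls (28%), or 1.04% of the tested rows, 127 of them higher and 48 lower. At or above the median level of 14.59 CPM the median SE was 0.096 for both isomers together, against 0.107 for magnolol alone and 0.119 for honokiol alone. The smallest sizes called were 0.30 for rises and 0.31 for falls. Compound and control libraries did not overlap in 103 of the 127 small rises and 44 of the 48 small falls. The isomers differed in 16 of the small rises and in 0 of the small falls, while 47 of the 48 falls had an isomer interval within 2-fold either way.

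Of these small changes 35 rises and 8 falls stayed called with every library left out in turn. Those of the rises with the highest CPM were ogt-1, C08F11.13, clec-41, pgp-2, C06B3.6, F25H2.6, lec-10 and C17C3.1, with changes of 0.38 to 0.56. Only ogt-1 and pgp-2 were called in each compound's own comparison with control. With magnolol C08F11.13, clec-41, C06B3.6, F25H2.6 and C17C3.1 were not called (adjusted p = 0.082, 0.0605, 0.553, 0.0794 and 0.0764). With honokiol lec-10 was not called (adjusted p = 0.127). The gene ogt-1, which encodes the enzyme that attaches N-acetylglucosamine to proteins, was at 340.5 and 300.3 CPM with honokiol and 303.9, 328.8 and 287.5 CPM with magnolol, against 229.0, 218.1 and 223.1 CPM in control (0.49 ± 0.09, adjusted p = 0.00274). The compound libraries lay in 1 band above control, and the isomers differed by -0.06 (95% interval -0.29 to 0.16). The P-glycoprotein gene pgp-2 was at 220.3 and 218.5 CPM with honokiol and 156.4 to 177.8 CPM with magnolol, against 121.7 to 133.4 CPM in control (0.56 ± 0.08). In C06B3.6 the pooled change of 0.48 ± 0.09 came with overlap, since magnolol libraries at 103.4 to 113.4 CPM reached into the control range of 85.03 to 106.2 CPM and honokiol libraries stood at 180.0 and 169.2 CPM (adjusted p = 0.00298 between the isomers).

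The 8 small falls were ttr-44, Y32F6A.4, Y113G7B.12, ifc-1, glb-1, F22B7.9, cest-10 and C25F9.5, with changes of -0.54 to -0.46. The intermediate filament gene ifc-1 was at 44.73 and 41.42 CPM with honokiol and 41.44, 48.11 and 48.16 CPM with magnolol, against 68.9, 62.05 and 56.82 CPM in control (-0.49 ± 0.09, adjusted p = 0.00364). The globin gene glb-1 was at 26.47 to 38.43 CPM in the compound libraries, against 43.21, 44.83 and 50.9 CPM in control (-0.48 ± 0.09). The carboxylesterase gene cest-10 was at 24.16 to 32.55 CPM, against 39.53 to 40.88 CPM in control (-0.54 ± 0.10). In all 8 the compound and control libraries did not overlap, and none was called different between the isomers. By unadjusted 95% interval those of glb-1 (-0.64 to -0.17), ttr-44 (-0.50 to -0.02) and Y32F6A.4 (0.0034 to 0.43) excluded 0. In the comparison of honokiol with control, glb-1, ttr-44 and F22B7.9 were not called (adjusted p = 0.318, 0.18 and 0.151). The number of small changes was 64 and 70 without controls 1 and 2, 92 without honokiol 1, 115 without magnolol 1 and 96 without magnolol 3, and 266 in DESeq2.

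**Figure D4:**
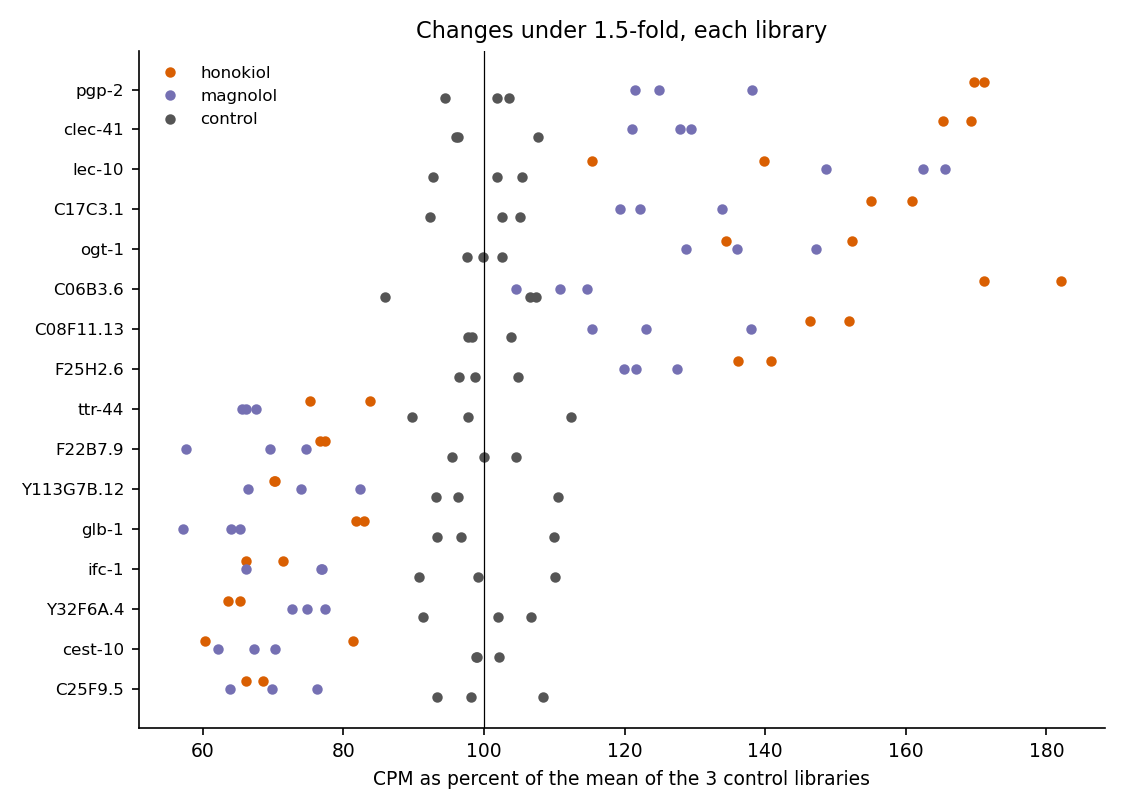
The 8 small rises and 8 small falls with the highest levels among those called with every library left out in turn. Each point is a library, as CPM in percent of the control mean of that gene. Apart from C06B3.6, whose magnolol libraries reach the control range, rises lie above and falls below the controls.

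The pooled set also called 51 genes (8.17% of its calls) that were called in neither compound's own comparison with the same controls, 19 higher and 32 lower. Those comparisons called 2.87% of tested rows for magnolol and 3.43% for honokiol. In reverse, 84 genes called with magnolol alone and 98 called with honokiol alone were not called for the average. The smallest p among the 51 belonged to gst-34, at 0.178 to 0.4242 CPM in the compound libraries, against 1.869, 1.101 and 1.157 CPM in control (-2.33 ± 0.49, adjusted p = 0.0115). Its adjusted p was 0.0974 without control 1 and 0.0552 without honokiol 2. F42A8.1 was at 30.75 to 37.78 CPM, against 44.05 to 47.79 CPM in control (-0.41 ± 0.09), with adjusted p = 0.098 without control 1 and 0.0789 without honokiol 1. Among the rises the smallest p was that of the receptor gene nhr-231, at 2.715 to 3.857 CPM, against 1.255, 1.844 and 1.687 CPM in control (1.05 ± 0.24, adjusted p = 0.0226). It had adjusted p = 0.112 and 0.055 without controls 1 and 3, 0.0872 without honokiol 2 and 0.0631 without magnolol 1. Of the 51 genes 0 stayed called with every library left out in turn, and they numbered 16, 21 and 23 without controls 1, 2 and 3, 28 without honokiol 1 and 33 without magnolol 3.

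Of the 57 gene lists 24 held 0 called rows in edgeR's quasi-likelihood test. They included cuticle collagens (150 rows), ligand-gated channels (97), mitochondrial and cytosolic ribosomal proteins (68 and 67), histones (45), the respiratory chain (44), translation factors (40), the proteasome (32), aminoacyl-tRNA synthetases (30), the unfolded protein responses of the endoplasmic reticulum (24) and of mitochondria (13), the citrate cycle (21) and insulin signalling (16). Over the 798 different rows of the 24 lists 18 were higher and 33 lower at an unadjusted p under 0.05, where 12% of all tested rows passed. DESeq2 called 2 higher and 2 lower, and limma-voom 1 higher and 0 lower. Chaperone genes that report other stress responses, added after their values were seen, stood at 0.09 ± 0.09 (hsp-4, of the endoplasmic reticulum) and 0.11 ± 0.13 (hsp-6, of mitochondria), and gcs-1, a glutathione synthesis gene, at 0.01 ± 0.08.

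The rises were unevenly placed in the genome. On chromosome V 217 of 3206 tested rows (6.77%) rose, beside 1.21% to 3.06% on the other chromosomes, while falls made up 0.251% to 0.885% of rows on each. Runs of at least 3 neighbouring protein-coding genes that all rose numbered 12, holding 49 of 463 such rises (10.6%), 10 of them on chromosome V and 2 on chromosome II. The longest run held 8 genes, cyp-13A1 to cyp-13A8, on chromosome II from 9779181 to 9807569 (WBcel235), with changes of 1.27 to 8.13. Within it cyp-13A3 had adjusted p = 0.0652 without control 1 and 0.0508 without honokiol 1, which leaves 5 neighbours, cyp-13A4 to cyp-13A8. The next held 5 UDP-glucuronosyltransferase genes, ugt-9 to ugt-13, on chromosome V from 4896048 to 4911399. In it ugt-10 had adjusted p = 0.0532 without control 2 and 0.0745 without honokiol 1, and ugt-14 had 0.129 and 0.0973 without controls 2 and 3, 0.113 and 0.0625 without honokiol 1 and 2 and 0.069 without magnolol 3. Others joined different families, such as srr-6, srr-4, cpt-4 and the sugar transporter gene swt-7 on chromosome V from 5012803 to 5030815, with changes of 1.03 to 3.49. Many runs are families of paralogs, where shared reads can move neighbours together, and their part in the pattern was not tested.

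Across uncalled genes the changes followed exon length, with opposite sign for the isomers. Spearman's rho, over 14588 genes that share libraries and are not independent replicates, was 0.36 for magnolol and -0.20 for honokiol, and 0.13 for their average. With each library's trend removed, 578 genes were higher and 157 lower, and small changes numbered 269.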

How the data were processed

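RNA-seq libraries of whole worms given honokiol (2), magnolol (3) or DMSO (3) were placed in groups by their titles. The authors deposited whole-number, unnormalized read counts for each gene. WBcel235 and DESeq2 appear in the submitters' processing notes, without their roles. Which aligner and counter were used, whether counting used strand and what became of reads matching several genes are points not given in the sources used here. Reads of a gene and of one overlapping or antisense to it therefore cannot be separated. Of 21309 rows in the table, 1052 were loci added by the authors, which were tested but kept out of gene lists. A symbol stood on more than 1 row for 404 symbols, and such rows are named with their identifier. Positions come from the Ensembl annotation of WBcel235, in which 93.1% of gene-model rows were found once. Promoter sequences were not analysed here.

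Counts were tested with edgeR 4.0.16 in R 4.3.3: filterByExpr by group, TMM scaling, 1 mean for each of the 3 groups fitted to all 8 libraries by glmQLFit, and two-sided glmQLFTest, with Benjamini-Hochberg adjustment at 0.05 over 16813 rows. Biological variation came to a coefficient of 14.1% (degrees of freedom 5 residual, 9.35 prior). CPM used TMM-scaled library sizes. The SE is the size of the log2 change divided by the square root of F. On simulated counts of 16779 genes, changes at or above the median level were recovered in 50% of cases at 1.3-fold. Recovery was 96% at 1.5-fold and 100% at 2-fold, with 4.95% false calls. Both isomers were given the same change there, and counts were drawn independently. These rates therefore do not cover isomer differences or shifts that many genes of a library share.

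Named genes were the 10 largest rises and falls by the rule in the text, up to 3 with the smallest p of each list with at least 3 called members, the 8 stable small changes with the highest CPM in each direction, the 5 with the smallest p in each direction among genes called for neither compound alone, and the 4 largest isomer differences in each direction. Not every one is described. The comparison, lists and rules were chosen with earlier results of these data known. Alternatives tried were scaling by DESeq2 size factors or by upper quartile, 2 other low-count filters, DESeq2 1.42.0, limma-voom (limma 3.58.1), the replicate number as a block, equal weight per library, the compound libraries as 1 group, a threshold of 0.01, a 2-fold minimum, removal of the exon-length trend, removal of the added loci and each library left out in turn. Without one honokiol library, the spread of the other was taken from the remaining groups. Plots used Python 3.11.15, pandas 2.3.3 and matplotlib 3.10.9.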

Additional observations from a re-analysis of the deposited data

How the results depend on the processing

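Counts within 1.5 times of those reported came from DESeq2 size factors, upper-quartile scaling, both other low-count filters, limma-voom, equal weight per library and removal of the added loci. DESeq2 gave 180 lower genes and 266 small changes, and removal of the length trend 269 small changes. With the compound libraries as 1 group there were 308 higher, 52 lower, 56 small, 10 called for neither compound alone, 94 differing between the isomers and 359 without overlap. At a threshold of 0.01 there were 42 lower, 55 small and 21 for neither alone. Genes of at least 2-fold numbered 234 higher, 17 lower and 235 without overlap, which follows from that minimum. With each library left out in turn the counts ran from 403 to 499 higher, 59 to 117 lower, 64 to 165 small, 16 to 63 for neither alone, 115 to 192 differing between the isomers (115 without honokiol 2) and 434 to 552 without overlap. Whether the replicate numbers pair the samples is not known. Deviations of same-numbered libraries correlated at -0.267 to 0.0598. With 2 or 3 libraries in each group, whose deviations from the group mean mirror each other, this cannot decide it. The honokiol library names also skip a number, so equal replicate numbers need not mark equal positions. With the number as a replicate block there were 429 higher, 58 lower, 78 small, 30 for neither alone, 136 differing and 435 without overlap. Of 2118 values of the 101 named genes under the alternatives 1991 kept direction and call, 127 lost the call and 0 turned direction. Other than by construction, the causes were not tested. With 2 honokiol and 3 control libraries, differences near 1.3-fold are at the limit of detection.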
